A study of Mus musculus with 30 samples.

Results

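Oxidative phosphorylation genes are the genes for the enzymes of the mitochondrial respiratory chain (complexes I to IV) and for the ATP synthase (complex V). They were chosen by name. Genes whose symbol starts with *Nduf*, *Uqcr*, *Sdh*, *Atp5*, *Cox4*, *Cox5*, *Cox6*, *Cox7* or *Cox8* were taken as nuclear members, with names holding -ps left out, and the *mt-Nd*, *mt-Co*, *mt-Atp* and *mt-Cytb* genes were taken as mitochondrial members. This gave 110 of the 46078 genes of the table, 97 on nuclear chromosomes and 13 on the mitochondrial chromosome. The rule uses no measured value.

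The study sequenced poly(A)-selected RNA from scrapes of the epithelial layer of the colon of wild-type C57BL/6J mice. AOM/DSS mice received 1 intraperitoneal injection of the mutagen azoxymethane (AOM, 10 mg/kg) and then 3 cycles of 2.5% dextran sulfate sodium (DSS), which injures the colon lining, in drinking water. They were killed 9 or 15 weeks after AOM. Vehicle mice received saline in place of AOM, no DSS, and were killed at 9 weeks. Each of the 6 groups (female and male vehicle, female and male AOM/DSS at 9 weeks, female and male AOM/DSS at 15 weeks) held 5 mice, 1 library each, so each treatment held 10 libraries over both sexes and there were 30 in all. No vehicle mice were killed at 15 weeks, so at 15 weeks the treatment and the 6 further weeks of age cannot be told apart.

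The respiratory chain passes electrons from NADH (through complex I) and succinate (through complex II) to complex III, cytochrome c and complex IV, where oxygen is reduced. The protons pumped by complexes I, III and IV drive complex V to make ATP. Complex II is made by nuclear genes alone, whereas complexes I, III, IV and V join nuclear subunits, which are imported into the mitochondrion, to a few subunits made inside it from mitochondrial DNA. Colonocytes, the absorptive cells of the colon lining, burn butyrate from gut bacteria in this pathway.

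The counts of a library summed to between 9265804 (female vehicle replicate 5) and 30806392. Counts are given as CPM, that is, scaled to the size of the library, with TMM factors, and 16261 genes passed the filter on low counts, among them 90 nuclear and 13 mitochondrial members. Male vehicle replicate 1 stood apart in its smooth muscle genes: the summed level of 9 smooth muscle markers was 5899.9 CPM there and 284 CPM or less in the other 29 libraries. Female vehicle replicate 1 had the lowest summed level of 6 proliferation markers (261 CPM), and female 9-week replicate 5 the highest mitochondrial share of its group. The calls of members are therefore also given without these 3 libraries, a choice made after seeing the data. Female 9-week replicate 5 was picked by its mitochondrial share, so mitochondrial calls without the 3 libraries were selected by the values they test. The 2 vehicle libraries left out also had the lowest mitochondrial share of their groups (5.87% in female and 3.86% in male replicate 1). Leaving them out therefore raises the vehicle level of the mitochondrial members. The library with the next lowest proliferation sum, female 15-week replicate 5 (300 CPM), was kept. The libraries with the highest mitochondrial share among female vehicle mice (replicate 4, 14.9%) and female 15-week mice (replicate 2, 21.97%) were kept. The label of the tissue held in all libraries: 8 markers of colon epithelium summed to between 9829 and 18535 CPM. A gene is called higher or lower at a Benjamini-Hochberg adjusted p under 0.05 in edgeR's quasi-likelihood test over all 16261 genes. In bulk tissue, fewer cells of a type and less RNA per cell cannot be told apart.

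The nuclear members took a narrow share of each library and the mitochondrial members a wide one. Nuclear members made up 1.39% (lowest), 1.60% (median) and 1.76% (highest) of the counts in the 10 vehicle libraries, 1.40%, 1.64% and 1.85% at 9 weeks, and 1.54%, 1.73% and 2.21% at 15 weeks. Mitochondrial members made up 3.86%, 7.56% and 14.9% in vehicle, 3.87%, 4.86% and 11.5% at 9 weeks, and 4.39%, 8.22% and 21.97% at 15 weeks. The lowest median of the mitochondrial share stood at 9 weeks in both sexes, and the 3 treatments overlapped for both sets. Mitochondrial counts per nuclear count were 2.78, 4.57 and 9.93 in vehicle (lowest, median, highest), 2.43, 2.91 and 6.20 at 9 weeks, and 2.50, 4.85 and 13.3 at 15 weeks.

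**Figure D1:**
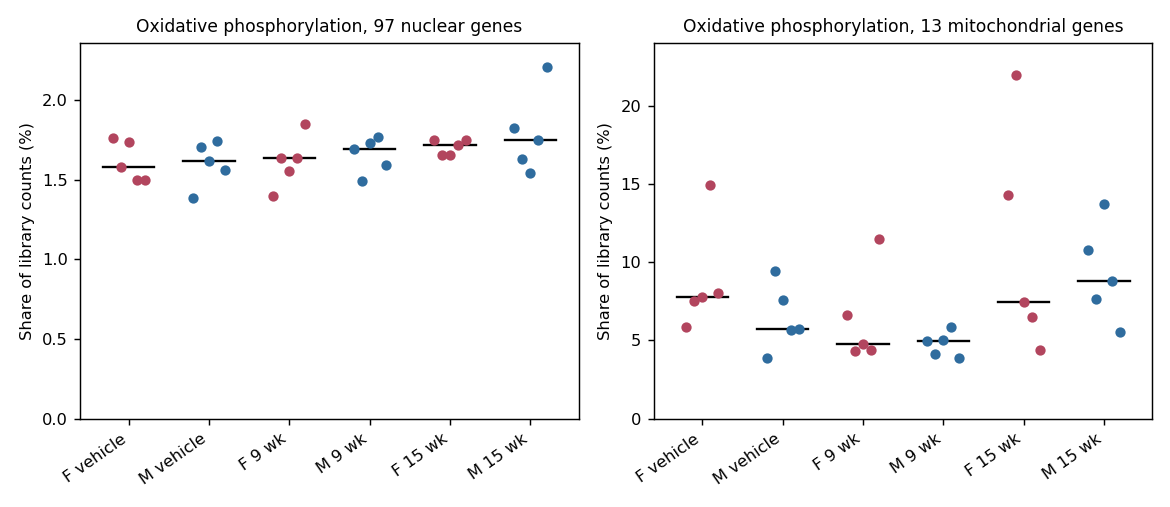
Share of the counts of each library (percent, y axis) held by the 97 nuclear members (left) and the 13 mitochondrial members (right) in the 6 groups; each point is 1 library and the bar is the group median. Nuclear shares lie between 1.39% and 2.21%, mitochondrial shares between 3.86% and 21.97%.

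The 2 sets also differed in how much mice of the same group varied. The standard deviation of log2 CPM within groups had a median of 0.22 over the 90 tested nuclear members (range 0.10 to 0.59) and of 0.69 over the 13 mitochondrial members (range 0.59 to 1.17), against 0.33 over all genes tested. Thus even the steadiest mitochondrial gene varied about as much as the least steady nuclear member. The 6 mitochondrial genes above 1000 CPM had a median of 0.62, so the width was not particular to the genes of low count. The mitochondrial ribosomal RNAs, which are poorly captured by poly(A) selection, took 0.0956% to 0.985% of the counts.

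Among subunits, levels were compared per length, in the deposited FPKM, for nuclear members. The highest mean over the 30 libraries within each complex belonged to *Ndufb9* in complex I (193 ± 22.2 FPKM, SD, n = 30), *Sdhd*, a membrane anchor of complex II (171 ± 16.4), *Uqcrh*, the hinge protein of complex III (473 ± 64.7), *Cox4i1*, a regulatory subunit of complex IV (615 ± 106), and *Atp5b*, the catalytic beta subunit of complex V (642 ± 64.7). *Atp5b* and *Cox4i1* differed by less than their spread. The FPKM of mitochondrial genes could not be used: *mt-Nd1*, *mt-Nd2*, *mt-Atp6* and *mt-Nd4* are listed at 0 FPKM in all 30 libraries although their median counts were 165476, 69285, 793 and 95593.

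In CPM per kilobase, here without TMM factors, the mitochondrial genes fell into a high and a low set. *mt-Co1*, the catalytic core of complex IV, had a mean of 29510 CPM per kilobase, *mt-Cytb* of complex III 10034, and *mt-Nd1*, *mt-Nd4*, *mt-Nd2* and *mt-Nd5* of complex I 7951, 3243, 2919 and 2861. The other 7 genes (*mt-Co2*, *mt-Co3*, *mt-Atp6*, *mt-Atp8*, *mt-Nd3*, *mt-Nd4l* and *mt-Nd6*) had means of 76.9 CPM or less. The highest of these means was that of *mt-Co2*, which had 895 CPM, with TMM factors, in female 15-week replicate 2. For 5 of these 7 genes, 98.0% to 100% of their 51-base words also occur in another annotated gene. *mt-Nd6*, the only member read from the other strand of the mitochondrial chromosome, and *mt-Atp8* share no such word with another gene, and *mt-Atp8* overlaps *mt-Atp6* by 43 bases.

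The shared words come from a copy of mitochondrial DNA in the nuclear genome. It spans chr1:24611535-24616197 (GRCm38, minus strand, 4663 bases) and is annotated as 7 pseudogenes that match the stretch from the 3′ part of *mt-Co1* to *mt-Nd4*. The copies of *mt-Co2*, *mt-Atp6*, *mt-Co3*, *mt-Nd4l* and *mt-Nd4* have 0 mismatches over their aligned bases. Where the copy begins, its pseudogene *Gm29216* differs from *mt-Co1* at 6 places within the first 13 bases and then runs identical, and the *mt-Nd3* copy differs at 1 base. Both stretches are shown because they hold the places where gene and copy differ within the aligned bases. The copy aligns to 492 of the 1545 bases of *mt-Co1* and to 876 of the 1378 bases of *mt-Nd4*. Positions count from 1 at the first base of the mitochondrial gene, and the mitochondrial base is given first: T1056A, C1057T, A1059G, A1060G, C1062A and A1066T in *mt-Co1*, and T3C in *mt-Nd3*. Capitals mark the bases that differ between each gene and its copy, and the sequences are those of the GENCODE transcripts (GRCm38).
mt-Co1 (chrM:6381-6440): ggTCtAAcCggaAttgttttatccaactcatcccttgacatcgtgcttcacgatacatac
Gm29216 (chr1:24616138-24616197): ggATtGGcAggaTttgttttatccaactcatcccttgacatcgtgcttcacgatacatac
mt-Nd3 (chrM:9459-9518): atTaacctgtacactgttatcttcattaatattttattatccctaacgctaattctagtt
Gm28438 (chr1:24613060-24613119): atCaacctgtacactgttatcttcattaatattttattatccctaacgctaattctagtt

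How reads that fit more than 1 place were counted is not given in the sources used here, so the level of *mt-Co2*, *mt-Co3*, *mt-Atp6*, *mt-Nd3* and *mt-Nd4l* is uncertain. *mt-Co1* and *mt-Nd4* share 50.64% and 62.2% of their words with other genes, so their levels are uncertain in part. Only annotated transcripts were searched. *mt-Atp8* lies between *mt-Co2* and *mt-Atp6*, within the stretch that the copy matches, and whether the copy holds its sequence was not searched. In CPM without TMM factors, as for the means that follow, *mt-Co2* averaged 76.9 CPM and its copy *Gm28661* 44.3 CPM. *mt-Atp6* averaged 46.1 CPM and *Gm10925* 37.7 CPM. *mt-Co3* averaged 40.8 CPM and *Gm28437* 25.2 CPM, while *mt-Nd3* averaged 5.32 CPM and *Gm28438* 1.15 CPM.

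At 9 weeks after AOM, soon after the last DSS cycle, the nuclear members stayed near their vehicle level and 2 of 90 fell, *Cox7a1* and *Atp5sl*. Of the 13 mitochondrial members all had a fold change below zero, but none was called. Over all genes 9.88% were called higher and 6.32% lower in this comparison, against 0% higher and 2.22% lower of the nuclear members. The counts without adjustment (p under 0.05) were 4 of the 90 nuclear and 0 of the 13 mitochondrial members, and DESeq2 called 0 mitochondrial members as well.

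*Cox7a1*, the form of subunit 7a of complex IV best known from heart and skeletal muscle, had 17.4, 28.9 and 40.8 CPM in vehicle (lowest, median, highest), 17.1, 20.3 and 27.0 at 9 weeks, and 16.6, 29.9 and 37.6 at 15 weeks. All 9-week libraries lay below the vehicle median. Its log2 fold change at 9 weeks was -0.46 (SE 0.14, adjusted p = 0.0220) and at 15 weeks -0.056 (adjusted p = 0.805). The 9-week call of *Cox7a1* was lost without female vehicle replicate 3 (adjusted p = 0.0511) or male vehicle replicate 2 (adjusted p = 0.0523). *Atp5sl*, which is named after the ATP synthase but is known for its part in the assembly of complex I, had 47.7, 58.3 and 73.1 CPM in vehicle, 38.5, 40.8 and 75.4 at 9 weeks and 37.8, 48.0 and 67.7 at 15 weeks. Its log2 fold change at 9 weeks was -0.39 (SE 0.11, adjusted p = 0.0117). 1 of the 9-week libraries, female replicate 5, lay above all vehicle libraries for *Atp5sl*.

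The median log2 fold change of the 90 nuclear members at 9 weeks was 0.0071, with 48 of 90 above zero and a range of -0.46 to 0.19, and that of all genes was -0.024. The median of the 13 mitochondrial members was -0.46, with a range of -0.82 (*mt-Co2*) to -0.23 (*mt-Co3*). The standard errors of the mitochondrial members, with a median of 0.30, were wider than those of the nuclear ones at 0.098. Without the 3 libraries named above, the mitochondrial median was -0.78 and 7 of the 13 were called lower.

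Markers of other cell types were called at the same time. At 9 weeks 5 of 5 neutrophil and 5 of 5 T cell markers rose, and the neutrophil markers summed to 0 to 3.32 CPM in vehicle, 0.430 to 111 at 9 weeks and 0.534 to 15.8 at 15 weeks. The T cell markers summed to 1.89 to 9.61, 5.49 to 14.5 and 4.06 to 14.9 CPM. Of 6 B and plasma cell markers 2 rose, with sums of 19.1 to 252 CPM in vehicle, 81.9 to 685 at 9 weeks and 30.9 to 277 at 15 weeks, and of 7 macrophage markers 3 rose, with sums of 12.4 to 184 CPM, 49.1 to 212 and 21.4 to 126. Of 8 markers of absorptive colonocytes 1 rose and 1 fell. The part of these cells in the 9-week values of the members was not tested.

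At 15 weeks the nuclear members stood above vehicle. Of 90, 29 rose (32.2%) and 0 fell, against 7.76% of all genes called higher and 9.66% called lower. Their median log2 fold change was 0.23, with 83 of 90 (92.2%) above zero, while the median of all genes was -0.025 with 46.7% above zero. The changes were small, from -0.25 to 0.53, and 61 of the 90 had an unadjusted p under 0.05. No member had all 10 libraries at 15 weeks above all 10 vehicle libraries, which 0.166% of all genes did.

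Complex I is the largest enzyme of the chain, and 10 of its 36 tested nuclear subunits rose at 15 weeks with a median log2 fold change of 0.23. *Ndufs4*, an accessory subunit needed for a stable NADH-oxidizing arm, had 54.9, 82.5 and 93.1 CPM in vehicle, 73.9, 92.5 and 112 at 9 weeks, and 88.1, 105 and 161 at 15 weeks. The lowest 15-week library of *Ndufs4* lay within the vehicle range, close to its top. Its log2 fold change was 0.44 (SE 0.099, adjusted p = 0.00525), the smallest adjusted p of the members. *Ndufs4* was called in all 9 alternative settings and all 30 fits that left out 1 library, with a highest adjusted p of 0.0374.

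*Ndufs6*, a zinc-binding subunit of the same arm, rose by 0.43 on the log2 scale (SE 0.14, adjusted p = 0.0318). Its libraries ranged from 48.8 to 85.7 CPM in vehicle (median 71.8) and from 64.3 to 133.5 at 15 weeks (median 86.8). *Ndufs6* lost its call in 8 of the 30 fits that left out 1 library and in 2 of 9 alternative settings, with a highest adjusted p of 0.170. The others that rose were *Ndufc1*, *Ndufa11*, *Ndufb6*, *Ndufa10*, *Ndufs5*, *Ndufa5*, *Ndufb3* and *Ndufs3*, by 0.22 to 0.38. *Ndufa2* had the largest value of the members, 0.53, but with a standard error of 0.26 it was not called (adjusted p = 0.139). *Ndufs1*, the large iron-sulfur subunit that carries electrons through the arm, had 161.9, 173 and 188 CPM in vehicle and 118, 168.8 and 195 at 15 weeks, a log2 difference of -0.093 (SE 0.071, adjusted p = 0.360). Members of one enzyme thus differed in their calls, and whether their changes differed from each other was not tested.

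Of the 7 *Nduf*-named assembly factors of complex I, *Ndufaf4* and *Ndufaf5* rose at 15 weeks, and the median was 0.14. *Ndufaf4* had 16.2, 28.1 and 34.9 CPM in vehicle and 27.6, 36.1 and 40.5 at 15 weeks, a log2 fold change of 0.34 (SE 0.10, adjusted p = 0.0226). In complex II, succinate dehydrogenase, 1 of 4 subunits rose. That was *Sdhd*, by 0.16 (SE 0.054, adjusted p = 0.0367), from 249.1, 295 and 337 CPM in vehicle to 293, 335 and 357 at 15 weeks. *Sdha*, its flavin-bearing catalytic subunit, had medians of 480 and 479 CPM and a log2 difference of -0.025 (SE 0.070, adjusted p = 0.832). Of the 4 *Sdh*-named assembly factors *Sdhaf2*, which helps attach that flavin, rose by 0.21 (SE 0.066, adjusted p = 0.0326).

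In complex III, 2 of 8 tested subunits rose, with a median of 0.32. *Uqcrh* rose by 0.35 (SE 0.10, adjusted p = 0.0234), with 241, 356 and 435 CPM in vehicle and 358, 399 and 561 at 15 weeks. *Uqcrfs1*, the Rieske iron-sulfur protein, rose by 0.32 (SE 0.090, adjusted p = 0.0177). *Uqcrq* had a larger value, 0.51, with a standard error of 0.22 (adjusted p = 0.107), and the core protein *Uqcrc2* a value of 0.085 (adjusted p = 0.359). Every one of the 8 had a value above zero.

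Complex IV had the highest share of rises among the enzymes, 6 of its 11 tested nuclear subunits (54.5%), with a median of 0.31, and all 11 had an unadjusted p under 0.05. *Cox7b*, a small subunit of the membrane part, had 163.2, 274 and 326 CPM in vehicle, 228, 283 and 396 at 9 weeks and 283, 341 and 397 at 15 weeks. All 15-week libraries of *Cox7b* lay above the vehicle median. Its log2 fold change was 0.38 (SE 0.097, adjusted p = 0.0109). *Cox7a2*, the form of subunit 7a found in most tissues, rose by 0.38 (SE 0.097, adjusted p = 0.0113), and *Cox5b*, *Cox6c*, *Cox6b1* and *Cox5a* rose by 0.30 to 0.37. *Cox4i1* had 490, 632 and 792 CPM in vehicle and 536, 758 and 969 at 15 weeks, a log2 difference of 0.29 that was not called (SE 0.13, adjusted p = 0.117).

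In complex V, 7 of 15 tested subunits rose, with a median of 0.26 and all 15 values above zero. *Atp5e*, the epsilon subunit of the central stalk, rose by 0.51 (SE 0.17, adjusted p = 0.0367), with 76.0, 145.6 and 164 CPM in vehicle and 130, 163.1 and 321 at 15 weeks. *Atp5k*, subunit e of the membrane part, rose by 0.47 (SE 0.14, adjusted p = 0.0224), with 56.3, 93.1 and 123 CPM in vehicle and 80.5, 125 and 175 at 15 weeks. *Atp5g1*, a gene for the proton-carrying c ring, rose by 0.39 (SE 0.14, adjusted p = 0.0492). The 3 genes had overlapping groups, and when libraries were left out singly *Atp5g1* lost its call in 21 of 30 fits and *Atp5e* in 10. *Atp5j2*, *Atp5l*, *Atp5j* and *Atp5g3* rose by 0.25 to 0.35.

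The catalytic subunits of complex V were not among them. *Atp5b* had 1433, 1654 and 1931 CPM in vehicle, 1514, 1614 and 1831 at 9 weeks and 1515, 1816 and 1929 at 15 weeks, a log2 difference of 0.10 at 15 weeks (SE 0.062, adjusted p = 0.250). *Atp5a1*, the alpha subunit, had 1182, 1404 and 1598 CPM in vehicle and 1319, 1484 and 1699 at 15 weeks, a difference of 0.10 (SE 0.061, adjusted p = 0.231). *Atp5s* and *Atp5sl*, which are not subunits of the enzyme, had values of -0.22 and -0.25 and were not called at 15 weeks (adjusted p = 0.0968 and 0.104).

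**Figure D2:**
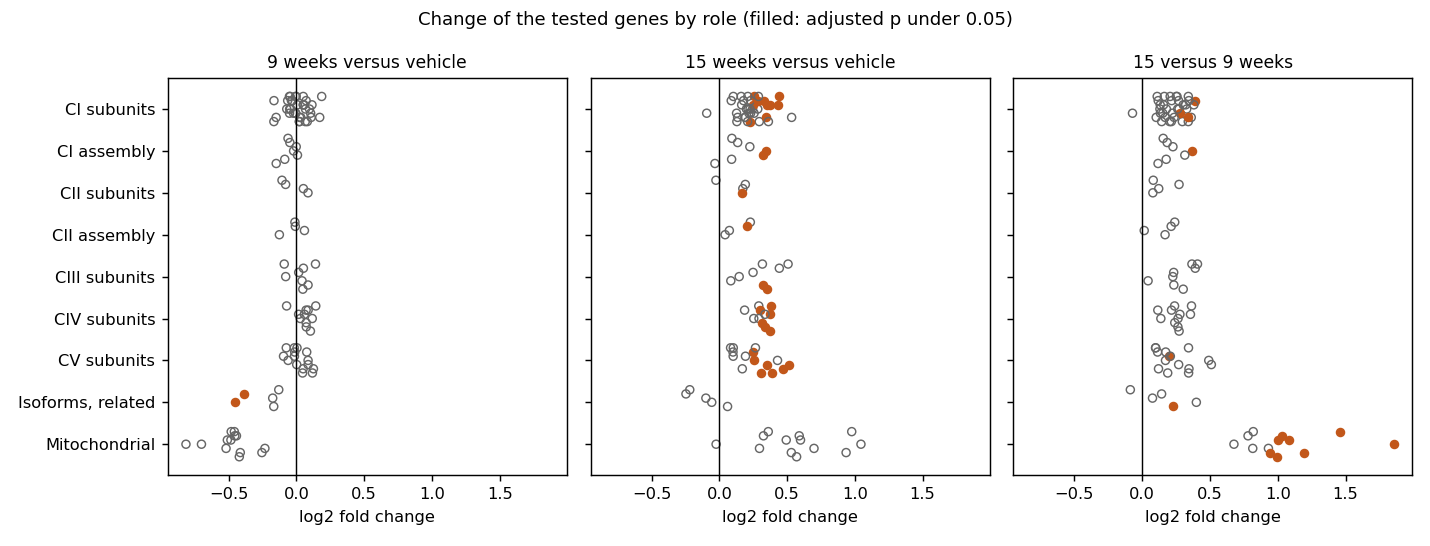
Log2 fold change (x axis) of the 103 tested members by role (rows) at 9 weeks versus vehicle, 15 weeks versus vehicle and 15 versus 9 weeks; filled points have an adjusted p under 0.05. At 15 weeks 29 nuclear members are filled, all above zero, and from 9 to 15 weeks 6 nuclear and 8 mitochondrial members are.

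The number of rises at 15 weeks turned on single libraries and on a model term for other cell types. When libraries were left out singly it was lowest, at 9, once male vehicle replicate 1 was dropped, and highest, at 43, once female 9-week replicate 5 was. It also fell to between 10 and 19 without female vehicle replicate 2, 4 or 5, male vehicle replicate 3 or 5, female 15-week replicate 1 or 2, or male 15-week replicate 1 or 5, and was 13 without the 3 libraries together. With the level of smooth muscle and fibroblast genes as a covariate 1 nuclear member, *Ndufs4*, was called (adjusted p = 0.0374), while the median of the nuclear members was 0.17.

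The calls of those markers also turned on male vehicle replicate 1. At 15 weeks, 8 of 9 smooth muscle markers fell (median log2 fold change -3.10), and so did 4 of 7 fibroblast markers (median -1.70), while 4 of 8 markers of colon epithelium rose (median 0.27). Without male vehicle replicate 1, 0 of 9 smooth muscle markers were called by edgeR (2 at an unadjusted p under 0.05, median -0.97) and 1 of 7 fibroblast markers fell (median -1.19). The summed level of the smooth muscle markers was 58.8, 127 and 5899.9 CPM in vehicle (lowest, median, highest), 59.9, 116 and 284 at 9 weeks and 39.4, 81.7 and 131 at 15 weeks. The fibroblast markers summed to 17.4, 89.5 and 1076 CPM in vehicle, 31.4, 167.1 and 296 at 9 weeks and 8.54, 44.9 and 119 at 15 weeks. Beyond the covariate above, the part of these cells in the rise of nuclear members was not tested. The mean log2 CPM of the 90 nuclear members had its lowest value, 6.24, in male vehicle replicate 1, and its medians were 6.62 in vehicle, 6.57 at 9 weeks and 6.75 at 15 weeks.

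**Figure D3:**
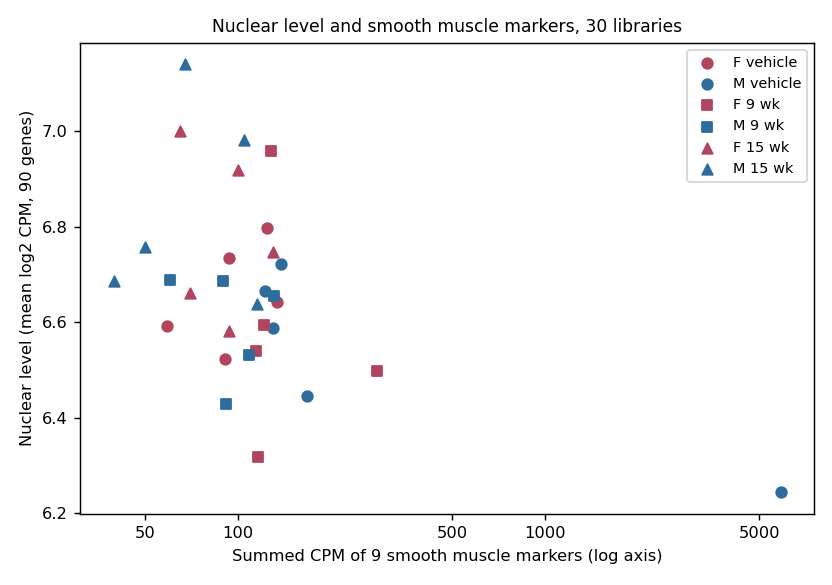
Mean log2 CPM of the 90 tested nuclear members (y axis) against the summed CPM of 9 smooth muscle markers (x axis, log scale) in the 30 libraries, with color for sex and shape for treatment. Male vehicle replicate 1 lies alone at 5899.9 CPM with the lowest nuclear level, 6.24.

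The change at 15 weeks also varied with the length of the gene, both among members and among all genes. Across the 90 nuclear members Spearman's rho of exon length and log2 fold change was -0.24, and across 16204 genes it was -0.30, given as a description since genes of the same libraries are not independent. Of the 19 nuclear members with under 1000 exon bases 7 rose (36.8%), with a median of 0.29, and of the 13 with 4000 bases or more 3 rose (23.1%), with a median of 0.18. Of all genes in these classes, shortest first, 9.77%, 12.8%, 10.6% and 4.45% were called higher, and their medians were 0.25, 0.12, 0.041 and -0.10. The part of gene length in the rise was not tested.

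**Figure D4:**
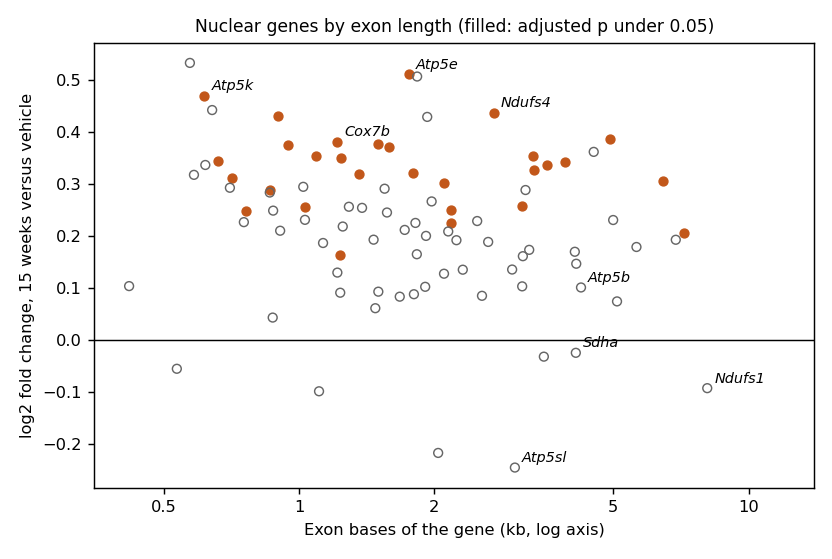
Log2 fold change at 15 weeks versus vehicle (y axis) of the 90 tested nuclear members against the exon bases of the gene (x axis, kilobases, log scale); filled points have an adjusted p under 0.05. Rises occur at all lengths, and 7 of the 90 values lie below zero, including *Ndufs1* and *Sdha*.

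The mitochondrial members at 15 weeks had a median log2 difference from vehicle of 0.57, with 12 of 13 above zero, but none was called. The values ran from -0.024 (*mt-Nd4l*) to 1.04 (*mt-Co2*), 5 of 13 had an unadjusted p under 0.05, and DESeq2 called 1. *mt-Co1* had 18525, 46144 and 89594 CPM in vehicle, 21102, 26237 and 80513 at 9 weeks and 24555, 49077 and 157664 at 15 weeks. The 15-week libraries of *mt-Co1* covered the whole vehicle range and reached beyond it. Its log2 difference at 15 weeks was 0.60 (SE 0.30, adjusted p = 0.154). Without female 15-week replicate 2 the median of the 13 was 0.25.

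From 9 to 15 weeks, both among AOM/DSS mice, the mitochondrial members showed the wider change. Of 13, 8 rose and 0 fell, against 0.978% of all genes called higher and 3.98% called lower, and 6 of the 90 nuclear members rose. This comparison shares its 15-week and 9-week libraries with the comparisons to vehicle, so the 3 sets of values are not independent. The median log2 fold change was 0.99 over the mitochondrial members, all 13 above zero, and 0.23 over the nuclear members, 88 of 90 above zero, with a median of -0.021 over all genes.

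The 8 that rose were *mt-Co2* (1.86, SE 0.52, adjusted p = 0.0405), *mt-Atp6* (1.46, SE 0.40), *mt-Nd6* (1.19, SE 0.35), *mt-Co1* (1.08, SE 0.30), *mt-Nd3* (1.03, SE 0.28), *mt-Nd4* (1.004, SE 0.27), *mt-Nd1* (0.99, SE 0.27) and *mt-Cytb* (0.95, SE 0.28), with adjusted p between 0.0349 and 0.0478. Without female 15-week replicate 2, the value of *mt-Co2* was 0.98 and was not called. They come from each enzyme that has mitochondrial subunits. *mt-Cytb*, the cytochrome b of complex III, had 5953, 9752 and 23944 CPM in vehicle, 5463, 7320 and 16639 at 9 weeks and 5805, 11913 and 39535 at 15 weeks. *mt-Nd1*, a proton-pumping membrane subunit of complex I, had 3816, 7179 and 13835 CPM in vehicle, 3715, 4776 and 10748 at 9 weeks and 4131, 8180 and 26629 at 15 weeks. Both ranges at 15 weeks covered most of that at 9 weeks. *mt-Nd6* had 6.29, 8.96 and 29.0 CPM at 9 weeks and 9.83, 15.8 and 88.5 at 15 weeks.

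Markers of absorptive colonocytes, fibroblasts and smooth muscle were also compared between the AOM/DSS groups. The 8 absorptive colonocyte markers summed to 5382, 10316 and 23212 CPM in vehicle (lowest, median, highest), 4261, 6746 and 25799 at 9 weeks and 6879, 12535 and 26538 at 15 weeks. The highest 9-week sum was that of female replicate 5, which also held the highest mitochondrial share at 9 weeks. That library had the lowest 9-week fibroblast sum as well, 31.4 CPM, against 105 CPM or more in the other 9-week libraries. From 9 to 15 weeks 0 of the 8 rose and 1 fell (median log2 fold change 0.059), and without that library 3 rose and 1 fell. Of 7 fibroblast markers 3 fell (median -1.69), and 6 fell without that library. Of 9 smooth muscle markers 0 were called by edgeR (5 at an unadjusted p under 0.05, median -1.80), and 8 fell without the 3 libraries together. The part of these cells in the mitochondrial rise was not tested beyond the covariate of smooth muscle and fibroblast genes.

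Of the 7 copies on chromosome 1, 4 rose from 9 to 15 weeks. *Gm29216*, which covers the 3′ part of *mt-Co1*, rose by 2.13 (SE 0.45, adjusted p = 0.0137), *Gm28661*, the copy of *mt-Co2*, by 1.21 (SE 0.32, adjusted p = 0.0346), *Gm10925*, the copy of *mt-Atp6*, by 1.42 (SE 0.37, adjusted p = 0.0303) and *Gm28437*, the copy of *mt-Co3*, by 1.21 (SE 0.29, adjusted p = 0.0213), although *mt-Co3* itself, with a value of 0.93, was not called. The copies of *mt-Nd3* (*Gm28438*, 0.93, adjusted p = 0.0879), *mt-Nd4* (*Gm28439*, 0.93, adjusted p = 0.0582) and *mt-Nd4l* (*Gm10222*, 0.66, adjusted p = 0.236) were not called, while the genes *mt-Nd3* and *mt-Nd4* were. Reads of gene and copy cannot be told apart where the sequences are identical. *mt-Nd1*, *mt-Cytb* and *mt-Nd6*, which share no 51-base word with another annotated gene, were called too. They lost their calls in 12, 20 and 15 of the 30 fits that left out 1 library. The part of the copies in the mitochondrial rise was not tested.

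The 6 nuclear members that rose from 9 to 15 weeks were *Ndufa10* (0.39, SE 0.10, adjusted p = 0.0339), *Ndufaf4* (0.36, SE 0.10, adjusted p = 0.0400), *Ndufv1* (0.34, SE 0.095, adjusted p = 0.0415), *Ndufb5* (0.28, SE 0.083, adjusted p = 0.0465), *Cox7a2l* (0.23, SE 0.061, adjusted p = 0.0353) and *Atp5c1* (0.20, SE 0.057, adjusted p = 0.0437). *Ndufv1* carries the flavin that takes electrons from NADH, *Cox7a2l* helps join complexes III and IV into supercomplexes, and *Atp5c1* is the rotating gamma shaft of complex V. *Ndufa10* had 118, 135 and 195 CPM at 9 weeks and 143.7, 180 and 236 at 15 weeks. *Cox7a2l* had 191, 202 and 216 CPM in vehicle, 158.9, 176 and 227 at 9 weeks and 192, 202 and 254 at 15 weeks, so its 15-week median lay at the vehicle median. 53 of the 90 nuclear and 11 of the 13 mitochondrial members had an unadjusted p under 0.05.

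These calls depended on single libraries and on the covariate. The 8 mitochondrial calls became 0 in 10 of the 30 fits that left out 1 library (female 9-week replicates 1 to 4, male 9-week replicates 1 to 3, female 15-week replicates 1 and 2, and male 15-week replicate 3). They became 1 without male 9-week replicate 5 or male 15-week replicate 1, 4 without male 15-week replicate 4 and 12 without female 9-week replicate 5. With the smooth muscle and fibroblast covariate 0 were called, and without the 3 libraries together all 13 were, with 51 nuclear members. Those 3 include the 9-week library with the highest mitochondrial share, so the 13 calls follow in part from that choice. The 6 nuclear calls ranged from 0 to 50, the 50 again without female 9-week replicate 5. They were 11 without male vehicle replicate 1 or female 15-week replicate 5, 2 or 3 without male 9-week replicate 5, female 15-week replicate 4 or male 15-week replicate 4 or 5, and 0 or 1 without female 9-week replicates 1 to 4, male 9-week replicates 1 to 3, female 15-week replicate 1 or 2 or male 15-week replicate 1.

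The sexes were compared next, since the study contrasted them. In females 0 members were called at 9 weeks (4.19% of all genes were called in either direction) and 0 at 15 weeks (0.117% of all genes), by edgeR's quasi-likelihood test, with 0 nuclear and 0 mitochondrial members at an unadjusted p under 0.05 at 9 weeks and 0 and 1 at 15 weeks. DESeq2 called 0 members in females at either time. In males 2 nuclear members fell at 9 weeks (10.1% of all genes were called), *Atp5s* and *Atp5sl*, and at 15 weeks 20 nuclear members rose and 1, *Atp5s*, fell (14.4% of all genes). *Atp5s*, known as coupling factor B, had a mean of 11.8 ± 0.909 CPM (SD, n = 5) in male vehicle mice, 8.92 ± 0.843 at 9 weeks and 8.87 ± 1.65 at 15 weeks. In females its means were 9.70 ± 1.62, 10.7 ± 0.797 and 9.49 ± 1.44 CPM. The 21 male calls at 15 weeks became 3 without male vehicle replicate 1, 13 or 6 without male vehicle replicate 3 or 5, 6 or 4 without male 15-week replicate 1 or 5, 34 without male vehicle replicate 4 and 35 without female 9-week replicate 5, and 0 with the smooth muscle and fibroblast covariate. The 2 male calls at 9 weeks became 1 or 0 in 22 of 30 such fits.

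The treatment effect was not shown to differ between the sexes for any member. The test of the difference called 0 members at 9 weeks, where 0% of all genes were called, and 0 at 15 weeks, where 0.00615% were. At an unadjusted p under 0.05 it held 1 nuclear member at each time, and DESeq2 called 0 members at either. *Ndufs4* rose in males by 0.63 (SE 0.14, adjusted p = 0.00562) and had a value of 0.25 in females (SE 0.14, adjusted p = 0.521), and the difference of the 2 values was 0.38 (SE 0.20, 95% interval -0.025 to 0.79, adjusted p = 0.669). The median at 15 weeks over the nuclear members was 0.31 in males and 0.14 in females, and over the mitochondrial members 0.64 and 0.41.

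Between males and females of the same treatment 0 members were called in vehicle (0.252% of all genes), 0 at 9 weeks (0.0492%) and 0 at 15 weeks (0.221%). At an unadjusted p under 0.05 there were 5, 0 and 1 nuclear members and 0, 0 and 1 mitochondrial members, and DESeq2 called 1 nuclear member in vehicle and 0 at both times. The median mitochondrial share was 7.74% in female and 5.74% in male vehicle mice, 4.77% and 4.94% at 9 weeks, and 7.44% and 8.82% at 15 weeks. The 2 sexes overlapped in each treatment.

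Tissue-restricted forms of subunits were scarce. Of 8 such members, *Cox7a1* and *Cox6b2* (a form best known from testis) passed the filter, and *Cox6b2* had 2.13, 3.29 and 5.70 CPM in vehicle and 2.16, 2.65 and 4.78 at 15 weeks. The other 6 were *Ndufa4l2* (156 counts over the 30 libraries), *Cox4i2* (160), *Cox8b* (73), *Cox6a2* (50), *Cox7b2* (3) and *Cox8c* (0). Male vehicle replicate 1 held 60 of the counts of *Ndufa4l2*, 33 of those of *Cox4i2* and 27 of those of *Cox8b*, more than any other library. A second entry named *Uqcrc1*, with 0 counts, completes the 7 members that were not tested.

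The promoters of the nuclear members were searched for the letters of 3 motifs on both strands, within 250 bases before to 50 bases after the start. RefSeq sequences (GRCm38.p6) were matched for 77 nuclear members, with 82 promoters. The core of the motif of NRF1, a factor known for its sites in nuclear genes of the respiratory chain, was searched as GCGCATGCG. It was in 10 of the 82 promoters (12.2%) and in 1.75% of all 32851 promoters. The ETS core CCGGAAGT, which the factor GABPA can bind, was in 6.10% against 3.89%, and the ERR motif TCAAGGTCA in 2.44% against 0.423%. The NRF1 core was in the promoters of 5 of the 28 matched members that rose at 15 weeks and of 5 of the 47 other tested ones.

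The 3 promoters shown belong to members that rose at 15 weeks and hold the NRF1 core. Each is the 250 bases before the gene start, written 5′ to 3′ on the strand of the gene, and capitals mark the core with its overlapping match on the other strand where there is one. *Ndufa11* is a membrane-arm subunit of complex I (chr17:56717512-56717761, plus strand), *Ndufaf4* an assembly factor (chr4:24897833-24898082, plus strand) and *Atp5l* subunit g of complex V (chr9:44920743-44920992, minus strand). A match is a description and does not show binding.
Ndufa11: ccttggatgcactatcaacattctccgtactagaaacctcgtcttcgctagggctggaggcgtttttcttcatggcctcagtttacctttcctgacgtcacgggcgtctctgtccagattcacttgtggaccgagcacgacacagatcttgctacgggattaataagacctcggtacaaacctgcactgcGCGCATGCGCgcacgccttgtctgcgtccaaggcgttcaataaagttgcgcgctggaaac
Ndufaf4: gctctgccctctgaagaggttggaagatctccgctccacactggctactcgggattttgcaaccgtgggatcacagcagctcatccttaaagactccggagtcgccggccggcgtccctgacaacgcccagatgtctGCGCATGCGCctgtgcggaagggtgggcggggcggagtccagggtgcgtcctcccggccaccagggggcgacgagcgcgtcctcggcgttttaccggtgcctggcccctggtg
Atp5l: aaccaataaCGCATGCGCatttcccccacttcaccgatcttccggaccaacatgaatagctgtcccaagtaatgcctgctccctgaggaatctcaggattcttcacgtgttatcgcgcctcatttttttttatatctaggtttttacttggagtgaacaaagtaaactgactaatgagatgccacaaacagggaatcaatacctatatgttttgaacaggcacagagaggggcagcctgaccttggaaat

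Genes next to the chain were described from lists of their function. *Cycs*, cytochrome c itself, rose by 0.38 at 9 weeks (SE 0.11, adjusted p = 0.0166) and by 0.51 at 15 weeks (SE 0.11, adjusted p = 0.00344). It had 91.0, 172 and 268 CPM in vehicle, 176, 230 and 252 at 9 weeks and 197, 255 and 291 at 15 weeks. The 9-week call of *Cycs* was lost in 2 of 9 alternative settings, without the 3 libraries together (adjusted p = 0.0556) and with the study's thresholds. *Atpif1*, the inhibitor of the ATP synthase, rose by 0.40 at 15 weeks (SE 0.13, adjusted p = 0.0318), with 97.5, 168.9 and 225 CPM in vehicle and 167.7, 206 and 281 at 15 weeks. Of 34 further assembly factors 0 were called at 9 weeks, where 3 had an unadjusted p under 0.05, while *Pet100* rose and *Cox17*, a copper chaperone of complex IV, fell at 15 weeks.

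Among 12 regulators of mitochondrial gene expression and biogenesis, *Ppargc1a*, a coactivator that switches on oxidative metabolism, fell at both times. It had 57.9, 71.4 and 98.3 CPM in vehicle, 25.8, 39.3 and 63.5 at 9 weeks and 21.8, 43.4 and 59.2 at 15 weeks. The median of both treated groups lay below the lowest vehicle library, and their highest libraries lay just above it. Its log2 fold change was -0.83 at 9 weeks (SE 0.16, adjusted p = 0.000595) and -0.82 at 15 weeks (SE 0.16, adjusted p = 0.00169), and it was called in every alternative. *Esrrg*, a nuclear receptor that works with it, fell by 1.15 at 15 weeks (SE 0.38, adjusted p = 0.0380). *Tfam*, which packages mitochondrial DNA, had medians of 43.8, 40.5 and 42.9 CPM and *Nrf1* of 24.2, 25.8 and 26.7 CPM, and neither was called.

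Of 24 genes of mitochondrial transcription and RNA handling, 4 fell and 0 rose at 9 weeks, and 1 rose and 2 fell at 15 weeks. Mitochondrial ribosomal proteins, which make the mitochondrial subunits, had 1 rise at 9 weeks and 21 rises with 0 falls among 76 at 15 weeks (27.6%), with a median of 0.22 and thus close to that of the nuclear members. Genes named *Rpl* or *Rps*, mostly cytosolic ribosomal proteins, had 17 rises and 2 falls among 94 at 15 weeks with a median of 0.20. In the tricarboxylic acid cycle, which feeds the chain, 2 of 18 genes fell at 9 weeks (*Ogdh* and *Pdha1*) and 0 were called at 15 weeks, where 2 had an unadjusted p under 0.05. In fatty acid oxidation, 1 rose and 3 fell of 19 at 9 weeks, and 3 rose at 15 weeks. In glycolysis, 2 of 14 rose at 9 weeks, among them *Hk2* by 0.73 (SE 0.14, adjusted p = 0.000515), and 5 at 15 weeks. Over all genes, 9.88% were called higher and 6.32% lower at 9 weeks, and 7.76% and 9.66% at 15 weeks. These shares stand beside the counts of each list, including the assembly factors and regulators above. The lists were described by their counts and not tested against other genes.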

How the data were processed

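RNA of 30 colon scrapes (6 groups of 5 mice, groups from the submitters' labels) was sequenced from stranded poly(A) libraries. The authors called bases with bcl2fastq 2.20.0.422, trimmed reads with Trim Galore, aligned them to GRCm38 (mm10) with STAR, counted reads per gene with featureCounts and computed FPKM with StringTie. The deposited counts are raw whole-number counts per gene. The deposited FPKM values were used for levels of nuclear genes only, since 4 mitochondrial genes with many counts are listed at 0 FPKM. The paper reports a high share of duplicate reads. Duplicates were not marked in the files, so depth bounds counting error only.

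Genes were filtered with filterByExpr, scaled by TMM and tested with edgeR 4.0.16 (R 4.3.3) by the quasi-likelihood test on all 30 libraries with 1 coefficient per group and Benjamini-Hochberg adjustment over 16261 genes. Treatments were compared as the mean of both sexes, then within each sex and between sexes. All p-values measure the spread between mice. DESeq2 1.42.0, RLE factors, no filter, the compared groups alone, scaling without mitochondrial genes, a replicate block, a smooth muscle and fibroblast covariate, the study's thresholds and fits without each library were the alternatives. The test was also run on simulated counts, with genes drawn independently and with changes larger than those of the nuclear members. That run therefore does not bear on the calls given here. All count columns were matched to a sample. Shared sequence was counted as 51-base words of GENCODE transcripts, and promoters were read from RefSeq (GRCm38.p6).

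The rule for named genes took all mitochondrial members, up to 6 called nuclear members in each direction with the largest changes per comparison, the subunit with the highest mean FPKM per complex, the tissue-restricted isoforms, up to 3 called genes per neighboring list, and a few regulators. Other members given with values were chosen after their values were seen. The members and lists were chosen with earlier results of these data known.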

Additional observations from a re-analysis of the deposited data

Results flagged for a closer look

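In groups of 5 libraries, 14 values of members or of the mitochondrial share lay far from the other 4 libraries of their group by Dixon's test, of 216 groups tested over 36 values. Chance flags about 1 in 20 groups. The mitochondrial share was 14.9% in female vehicle replicate 4 against a group median of 7.74%, and *mt-Cytb* (14.55 log2 CPM, median 13.26) and *mt-Nd4* (13.22, median 11.91) stood out in the same library. In female 9-week replicate 5, *mt-Co1* was 16.30 (median 14.68), *mt-Co3* 6.68 (median 4.39), *mt-Atp8* 3.13 (median 0.90), *Atp5sl* 6.24 (median 5.34) and *Atp5g1* 8.47 (median 7.73) log2 CPM. In male 15-week replicate 5, *mt-Nd4l* was -0.83 (median 1.34) and *mt-Atp8* -0.32 (median 2.34) log2 CPM, while that library had the highest nuclear share of all. *mt-Nd6* was 5.85 log2 CPM in female 15-week replicate 2 (median 4.03). The others were *Ndufaf4* at 4.79 in female 15-week replicate 1 (median 5.18), *Sdhd* at 8.20 in male 15-week replicate 2 (median 8.42) and *Uqcrh* at 8.77 in female vehicle replicate 1 (median 8.51).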

How the results depend on the processing

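The direction of the median change of the nuclear members at 15 weeks and from 9 to 15 weeks was the same in every alternative fit, and the numbers of calls were not. The size of the 15-week rise also varied with how the nuclear level per library was computed. As mean log2 CPM it stood 0.22 above vehicle, and over 6 alternative settings of the levels the value ran from 0.069 to 0.23. With DESeq2, 1 nuclear member was called lower and 1 mitochondrial member higher at 15 weeks, 12 nuclear members rose from 9 to 15 weeks, and 1 mitochondrial member in males at 15 weeks and 1 nuclear member between vehicle sexes were called. With RLE factors, or with scaling without mitochondrial genes, 1 nuclear member was called in males at 9 weeks. With the compared groups only, 14 nuclear members rose at 15 weeks, 1 was called in males at 9 weeks and 0 in males at 15 weeks. With no filter, 16 rose and 1 fell at 15 weeks, 1 nuclear and 5 mitochondrial members rose from 9 to 15 weeks and 0 were called in males at 9 weeks. With the smooth muscle and fibroblast covariate, 1 nuclear member rose at 15 weeks, 0 nuclear and 0 mitochondrial members rose from 9 to 15 weeks, 1 and 0 nuclear members were called in males at 9 and 15 weeks, and the mitochondrial medians were 0.22 at 15 weeks and 0.61 from 9 to 15 weeks. With the study's thresholds, 1 nuclear member fell at 9 weeks, 4 rose at 15 weeks, and 0 nuclear and 5 mitochondrial members rose from 9 to 15 weeks. Without 3 libraries together, 7 mitochondrial members fell at 9 weeks (median -0.78), 13 nuclear members rose at 15 weeks, 51 nuclear and 13 mitochondrial members rose from 9 to 15 weeks, 2 nuclear and 1 mitochondrial members were called in females at 9 weeks, and 6 nuclear members in males at 15 weeks. This set of libraries, and the use of the 6 mitochondrial members over 1000 CPM alone, were chosen after seeing the data, and 1 of the 3 libraries was chosen by its mitochondrial share. The cause of these shifts was not tested.

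Libraries with the same replicate number did not deviate together on average (mean r of -0.030 over 75 pairs, against 0.0067 over 300 other pairs). No pairing by number was seen, and the labels do not say whether the numbers pair mice. With the replicate block 12 nuclear members rose at 15 weeks, 3 nuclear and 0 mitochondrial members rose from 9 to 15 weeks, and 1 and 9 nuclear members were called in males at 9 and 15 weeks.

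Over fits that left out 1 library, nuclear falls at 9 weeks ranged from 1 to 3 and mitochondrial falls from 0 to 1. At 15 weeks nuclear rises ranged from 9 to 43, nuclear falls from 0 to 1, mitochondrial rises from 0 to 2 and the mitochondrial median from 0.25 to 0.72. From 9 to 15 weeks, nuclear rises ranged from 0 to 50 and mitochondrial rises from 0 to 12. Nuclear calls ranged from 0 to 1 in females at 9 weeks, 0 to 3 in males at 9 weeks, 3 to 35 in males at 15 weeks and 0 to 1 between vehicle sexes, and mitochondrial calls in males at 15 weeks from 0 to 1. The level of mitochondrial genes from the deposited FPKM was not run, since 4 of them are listed at 0 FPKM. Depth limits *mt-Nd4l*, *mt-Atp8* and *mt-Nd3*, with median counts of 48, 63 and 126.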
